A study of Mus musculus with 8 samples.

Results

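The genes described here are the glutathione, thioredoxin and antioxidant enzymes of mouse osteoblasts, together with the metallothioneins and the regulators Nfe2l2 and Keap1. They were chosen by symbol alone: every probe whose platform symbol belongs to the Gst, Mgst, Gpx, Prdx, Txn, Glrx, Sod or Nqo families, or is Gclc, Gclm, Gss, Gsr, Cat, Srxn1, Nfe2l2, Keap1, Mt1 or Mt2. This gave 114 probes for 72 genes, of 16593 genes with a named probe on the array, and no Gsr probe was among them. The cells were primary osteoblasts, which lay down bone matrix, taken from the calvaria (the skull cap) of mice on the C57Bl/6 background. They were differentiated for 7 days with ascorbic acid at 50 ug/ml and beta-glycerol phosphate at 10 mM. Illumina arrays were run on 4 samples labelled Lrp5-/- and 4 labelled Lrp5+/+, called knockout-labelled and control below; Lrp5 is a Wnt coreceptor. Per the labels' protocols the cells had received an adenovirus for Cre recombinase or for green fluorescent protein 48 hours ahead of differentiation; which group received which virus, and the age of the mice, were not stated in the labels. The single Lrp5 probe stood near background, with control arrays at 5.54 ± 0.12 log2 and knockout-labelled arrays at 5.87 ± 0.26 (SD, n = 4). Its position relative to the deleted part is not known here, so every direction below rests on the labels.

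Cells remove hydrogen peroxide and lipid peroxides through chains of thiol enzymes. Glutathione, made by the glutamate-cysteine ligase and glutathione synthetase, feeds the glutathione peroxidases, transferases and glutaredoxins, while thioredoxin and its reductases feed the peroxiredoxins. Superoxide dismutases turn superoxide into hydrogen peroxide, which catalase also removes. Many of these genes are switched on by the transcription factor Nrf2, the product of Nfe2l2, which Keap1 holds in check. Metallothioneins are small cysteine-rich proteins that bind zinc and copper and can also take up oxidants. In bone, oxidant load is known to affect both the bone-forming and the bone-resorbing cells.

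Between 9685 and 10363 of 25697 probes were detected per array. Osteoblast genes were present, since Col1a1, Col1a2, Sp7 and Alpl were detected on all arrays, while the late genes Bglap, Phex and Dmp1 were detected on none. All 5 osteoblast genes measured had means above the controls', and 0 passed the test. The largest of these differences was 0.58 log2, for Ibsp (limma adjusted p = 0.0700). Its signal rose above background on just 1 control array, against all 4 of the other group. Ibsp thus reached the 4 detecting arrays needed for a test only through the group with the higher mean, so its direction carries little weight. The summed linear signal of the 5 genes spanned 8863 to 10212 in control and 9942 to 11955 in knockout-labelled arrays. The 6 adipocyte, 6 endothelial and 2 erythroid markers with a probe were detected on no array. Of 9 macrophage and leukocyte markers with a probe, 5 were measured. Lyz2, Lyz1, Cd14 and Aif1 were detected on all arrays, and Tyrobp on 3 control arrays and 1 knockout-labelled array. The differences of these 5 ran from -0.27 to -0.12 log2 and 0 passed the test. Their summed signal was 7946 to 8595 for the controls against 6816 to 8049. The markers Ptprc, Itgam and Fcgr1 were not detected, and Cx3cr1 was detected on 3 arrays, too few to be tested. The chondrocyte collagen Col2a1 rose by 0.45 log2 (limma adjusted p = 0.00757), with the summed signal of 3 chondrocyte genes at 1229 to 1579 and 1857 to 1989, while Acan, Col10a1 and Matn1 were not detected. The skeletal muscle actin Acta1 fell by 0.73 (0.0153), with Myod1, Myog, Des and Ckm not detected. The part of these other cell types in the results below was not tested, and in bulk samples fewer cells of a type and less RNA per cell cannot be told apart.

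Of the 72 genes, 54 had a probe that 4 or more of the 8 arrays detected, at a detection p below 0.01, and were tested; 18 were not. In the knockout-labelled arrays 1 of the 54 rose, the metallothionein Mt2, and 2 fell, Glrx5 and Txnl4a (limma adjusted p under 0.05, adjusted over all 7041 genes tested). Over all genes tested, 8.62% passed the same test, against 5.56% of these redox genes. Which share is larger turned with the setting: with a trended and robust prior 24.1% of the redox genes and 13.7% of all genes passed, and in the authors' deposited log2 table the shares were 22.2% and 13.8%. For genes that did not pass, the difference of the means is given below as a value only. The median change of the 54 was -0.03 log2, against 0.00 over all genes, with 25 above 0 and 29 below. The changes ran from -0.47 to 0.57 log2, and the median residual SD was 0.12, against 0.11 over all genes. For 49 of the 54 the 95% interval of the change, which is not adjusted for the number of genes, lay within 0.5 log2 of 0. The 5 whose interval reached further were Mt2, Sod3, Gpx3, Gstp2 and Mgst2.

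**Figure D1:**
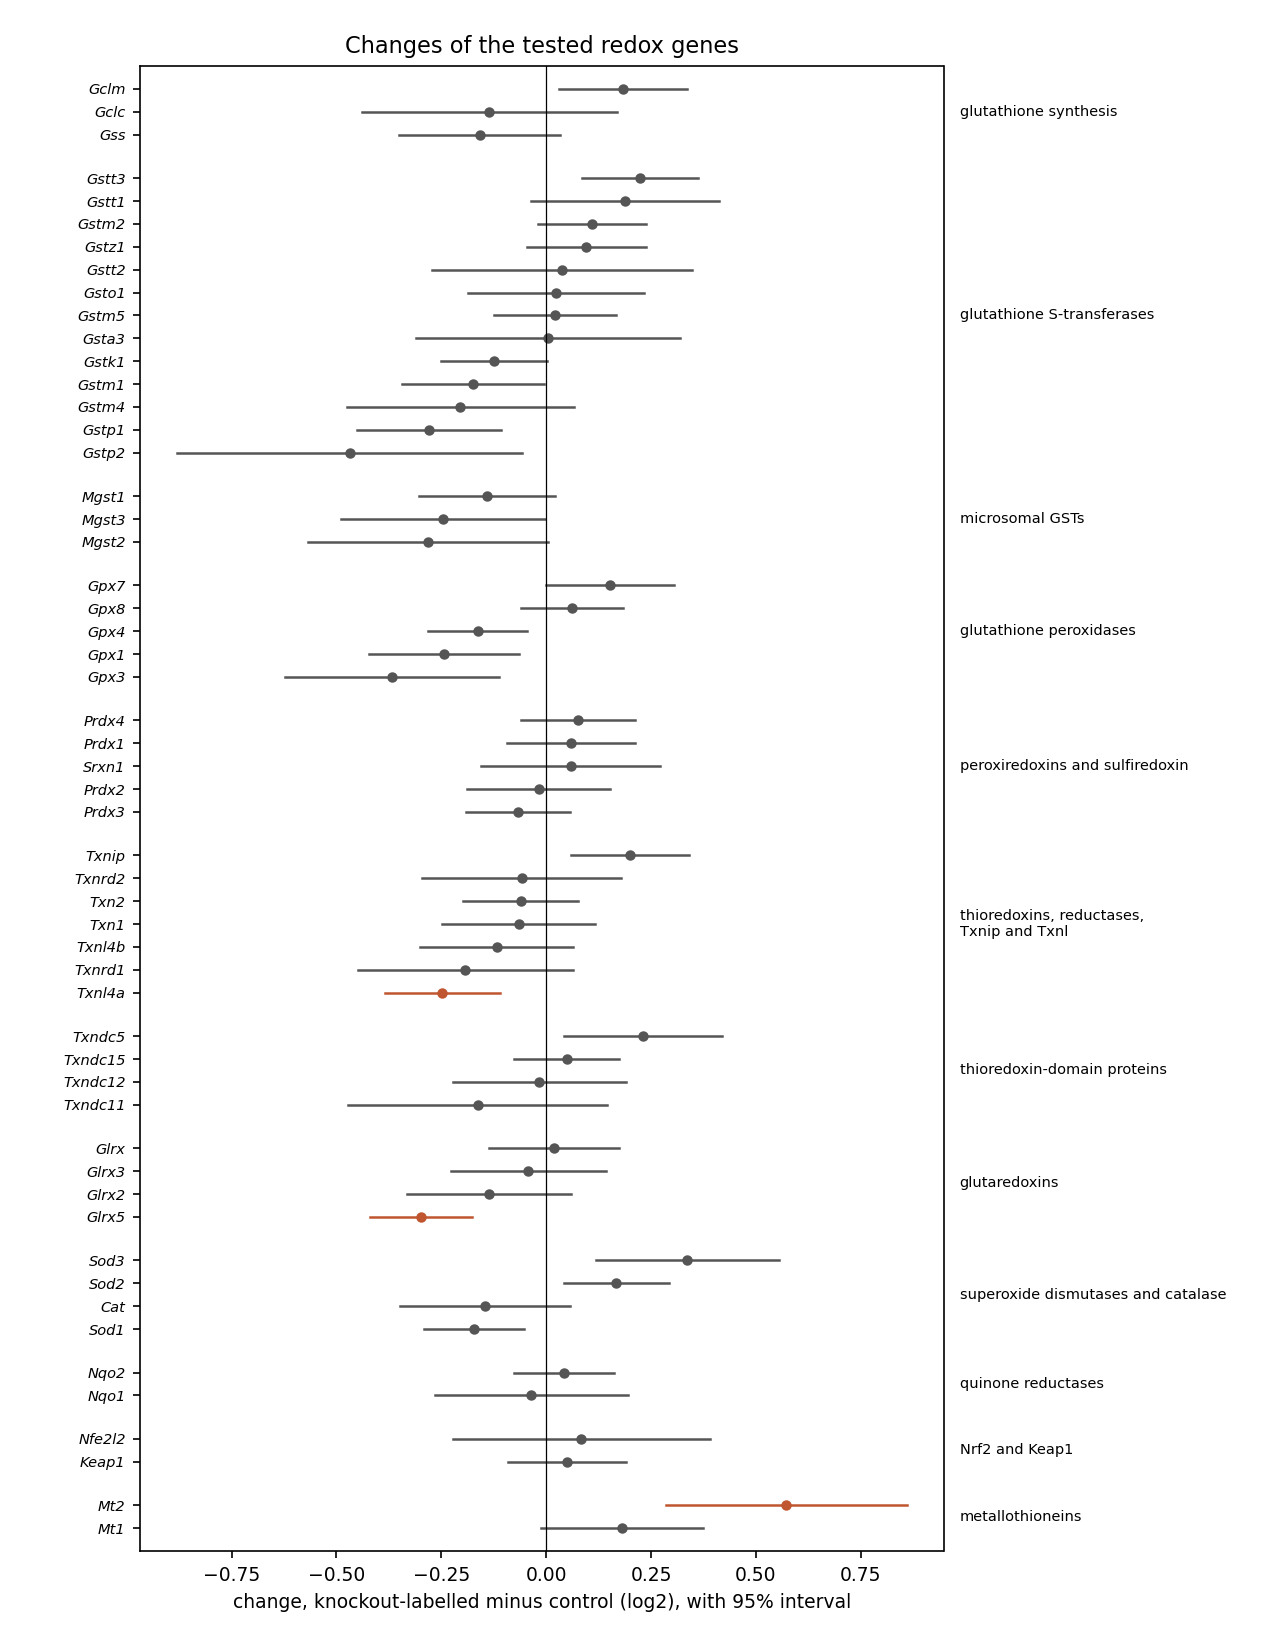
Change of each of the 54 tested redox genes, knockout-labelled minus control, in log2 (horizontal axis), grouped by role. Points are differences of the means of 4 arrays and bars are 95% intervals from limma; the 3 coloured genes, Mt2, Glrx5 and Txnl4a, passed an adjusted p of 0.05.

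The histogram of changes sets these genes against all genes tested. Most redox genes lay between -0.3 and 0.3 log2, where most other genes lay too.

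**Figure D2:**
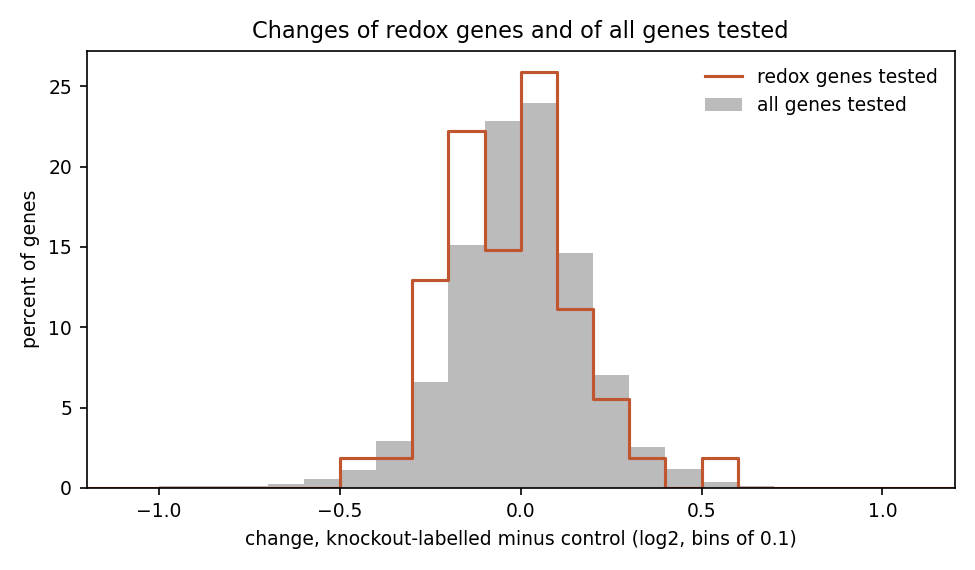
Percent of genes (vertical axis) in bins of 0.1 log2 of the change, knockout-labelled minus control (horizontal axis), for the 54 redox genes (line) and all 7041 genes tested (bars). The medians are -0.03 and 0.00; the horizontal axis leaves out the few genes of the whole table beyond 1.2.

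Mt2 had the largest change of the 54 and was 1.49-fold higher in the knockout-labelled arrays. Its control values were 8.45, 8.20, 8.15 and 8.77 log2, and its knockout-labelled values 8.91, 8.86, 9.16 and 8.93. The groups did not overlap, although control array 4 came within 0.1 of the lowest knockout-labelled array. The difference was 0.57 log2 (SE 0.13, 95% interval 0.29 to 0.86; limma adjusted p = 0.0249). The exact permutation test, two-sided, gave 0.0286, which is the smallest p that 4 against 4 arrays allow. The call was lost when control array 1, 2 or 3 or knockout-labelled array 3 was left out (limma adjusted p = 0.0512, 0.0700, 0.0641 and 0.0647), and with no detection filter (0.0590). The change itself stayed between 0.43 and 0.70 log2 under all 19 alternative settings.

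Mt1, the neighbouring metallothionein gene, did not pass. It stood at 13.99, 13.85, 13.93 and 14.13 log2 in control arrays and at 13.94, 14.18, 14.23 and 14.27 in knockout-labelled arrays. Knockout-labelled array 1 lay within the control range, and the difference of 0.18 (SE 0.09, 95% interval -0.01 to 0.37) did not pass (limma adjusted p = 0.222). The contrast of the 2 genes within each array, chosen after the values were seen, was -5.54, -5.65, -5.78 and -5.36 log2 (Mt2 minus Mt1) for the controls and -5.04, -5.31, -5.06 and -5.34 for the knockout-labelled arrays. These do not overlap, by a margin of about 0.02, and the contrast differed by 0.39 (exact permutation test, two-sided, p = 0.0286). The 2 probes differ widely in brightness, and the contrast was not repeated under other settings. Without background correction the change was 0.45 for Mt2 and 0.18 for Mt1. The metal-responsive transcription factor gene Mtf1 was detected on only 1 array, and the zinc exporter Slc30a1, a known target of it, differed by -0.07 (limma adjusted p = 0.681). Mt3 and Mt4 were not detected.

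The start-site windows of Mt2 and Mt1 are shown because the metal response element, the DNA element through which metallothioneins are known to respond to zinc, sits in such windows. They are taken from RefSeq, build GRCm38.p6, and run from 250 bases before to 50 bases after the annotated start. The Mt2 window is chr8:94172368-94172667 and the Mt1 window chr8:94178839-94179138, both on the plus strand. Capitals mark the metal response element cores TGCACNC and TGCGCNC, on either strand.
Mt2: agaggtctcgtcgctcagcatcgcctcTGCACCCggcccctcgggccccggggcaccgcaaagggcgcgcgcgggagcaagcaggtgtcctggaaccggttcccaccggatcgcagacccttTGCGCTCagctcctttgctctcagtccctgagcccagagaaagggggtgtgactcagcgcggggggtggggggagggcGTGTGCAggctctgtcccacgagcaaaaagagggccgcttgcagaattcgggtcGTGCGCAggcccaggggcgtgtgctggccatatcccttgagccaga
Mt1: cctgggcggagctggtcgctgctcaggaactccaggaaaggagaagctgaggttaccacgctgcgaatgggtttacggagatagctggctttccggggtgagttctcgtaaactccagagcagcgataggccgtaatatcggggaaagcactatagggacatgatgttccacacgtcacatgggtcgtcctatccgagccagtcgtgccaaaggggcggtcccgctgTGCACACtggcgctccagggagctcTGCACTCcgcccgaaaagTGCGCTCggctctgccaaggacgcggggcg
The Mt2 window held 4 such cores and the Mt1 window 3, none of them overlapping another. Of all 32851 start-site windows in the table, 25.7% held at least 1 of these cores. The Mt2 window also held 1 antioxidant response element core, TGACNNNGC, from base -79 to -71 relative to the start, and the Mt1 window held none. That core was found in 12.4% of all windows and in 14.8% of the 88 windows of the 66 redox genes that matched the table. The 13 redox genes with it were Gclm, Gsta3, Gstm5, Mgst1, Mt2, Nfe2l2, Prdx1, Sod1, Srxn1, Txndc11, Txndc2, Txndc5 and Txnrd1. Some metal response element cores lay past the annotated start. They sat at bases 4 to 10 in the Mt2 window, and at 2 to 8 and 20 to 26 in the Mt1 window. The counts of both kinds of core for Mt2 and Mt1 depend on where the annotated starts place the windows. This includes the lack of an antioxidant response element core in the Mt1 window. Bases outside the windows were not searched, and the starts used in these cells were not tested. These matches describe the sequence and say nothing of binding in these cells.

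**Figure D3:**
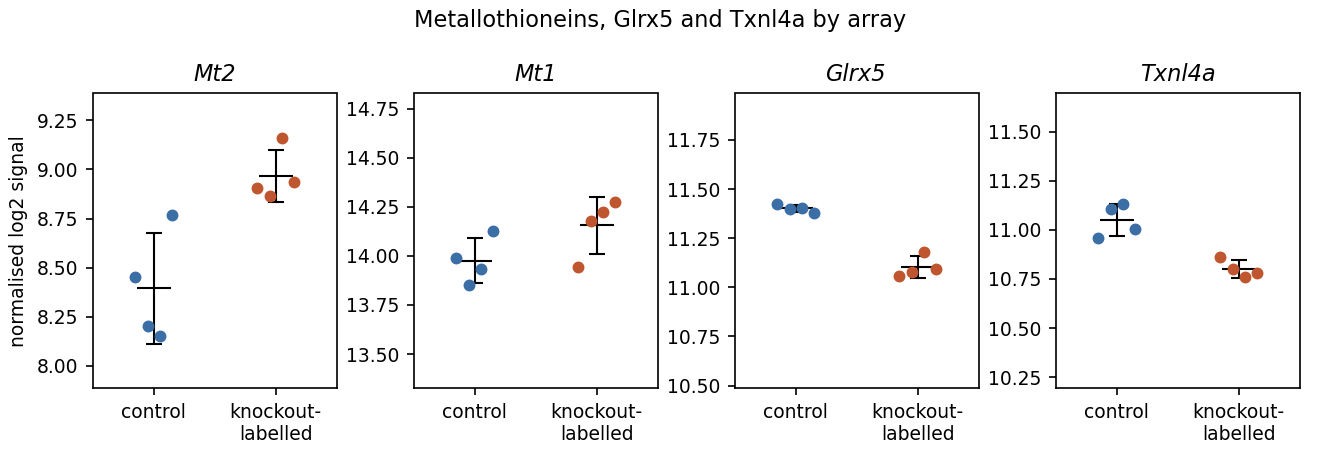
Normalised log2 signal (vertical axis) of Mt2, Mt1, Glrx5 and Txnl4a on each of the 4 control and 4 knockout-labelled arrays; points are arrays, and the bar and whiskers are the group mean and SD. Each panel spans the same 1.5 log2 units. The groups do not overlap for Mt2, Glrx5 and Txnl4a and overlap for Mt1.

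Glrx5 fell, and of the 3 calls it alone passed under every alternative run. It encodes the mitochondrial glutaredoxin that hands iron-sulfur clusters to other proteins. Control arrays read 11.43, 11.40, 11.40 and 11.38 log2, and knockout-labelled arrays 11.06, 11.08, 11.18 and 11.09. All 4 knockout-labelled arrays lay below all controls, by more than either group's spread. The difference was -0.30 log2, or 1.23-fold (SE 0.05, 95% interval -0.42 to -0.18; limma adjusted p = 0.0102; exact permutation p = 0.0286). It passed under each of the 19 alternatives, with changes between -0.33 and -0.25 and adjusted p-values up to 0.0415.

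The other 3 glutaredoxins tested did not pass. Glrx, the cytosolic enzyme that removes glutathione from proteins, had control arrays at 14.29 ± 0.09 log2 and knockout-labelled arrays at 14.31 ± 0.08 (SD, n = 4), and the 95% interval of its difference was -0.14 to 0.17. Glrx2, which is mostly mitochondrial, differed by -0.14 (limma adjusted p = 0.359) and Glrx3 by -0.04 (0.797).

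In the thioredoxin group, 1 of the 7 genes tested fell and 0 rose. The gene that fell was Txnl4a, which carries a thioredoxin-like name and fold but encodes a component of the spliceosome's U5 particle, with no known part in peroxide removal. Its control values were 10.96, 11.11, 11.13 and 11.004 log2, and its knockout-labelled values 10.86, 10.80, 10.76 and 10.78. The groups did not overlap, with a gap of about 0.1 between them, and the difference was -0.25 log2 (SE 0.06, 95% interval -0.39 to -0.11; limma adjusted p = 0.0352). Its 3 other detected probes differed by -0.26 to -0.14. The call was lost when control array 2 or 3 or any knockout-labelled array was left out (adjusted p from 0.0524 to 0.0954), with 75th percentile scaling (0.0753), with the replicate number as a block (0.0858) and with no detection filter (0.0709). Txnl4b, a relative with a splicing role, differed by -0.12 (limma adjusted p = 0.394).

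The redox-active thioredoxins gave values near 0. Txn1, the cytosolic thioredoxin, differed by -0.07 log2 (95% interval -0.25 to 0.12) and the mitochondrial Txn2 by -0.06 (-0.20 to 0.08). The reductase genes Txnrd1 and Txnrd2 differed by -0.19 and -0.06 (limma adjusted p = 0.321 and 0.780). Txnip, which encodes an inhibitor of thioredoxin that also limits glucose uptake, read 9.71, 9.59, 9.63 and 9.74 in control and 9.91, 9.93, 9.87 and 9.76 in knockout-labelled arrays. These groups did not overlap, but by a margin of about 0.02, and the difference of 0.20 (SE 0.06) did not pass (limma adjusted p = 0.0769). Among the thioredoxin-domain proteins, 0 of 4 tested passed. Txndc5, a protein disulfide isomerase of the endoplasmic reticulum, differed by 0.23 (adjusted p = 0.120), Txndc11 by -0.16 with signals above background on 3 control arrays and 1 knockout-labelled array, and Txndc15 and Txndc12 by 0.05 and -0.02.

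Nfe2l2, Keap1 and the quinone reductases Nqo1 and Nqo2 did not pass, 0 of 4 tested. Nfe2l2 read 8.78, 8.65, 9.04 and 9.28 log2 in control arrays and 8.85, 9.01, 8.95 and 9.28 in knockout-labelled arrays, a difference of 0.08 (95% interval -0.22 to 0.39; limma adjusted p = 0.749). The groups overlapped over nearly their whole range. Keap1 differed by 0.05 (95% interval -0.09 to 0.19), and its 3 other detected probes by -0.01 to 0.19. Nqo1, a classical Nrf2 target, read 9.03, 9.05, 9.18 and 9.44 in control and 8.95, 9.28, 9.10 and 9.22 in knockout-labelled arrays. Its difference was -0.04 (95% interval -0.26 to 0.19), so that a change of more than 0.3 log2 in either direction lay outside that interval. Nqo2 differed by 0.04 (-0.08 to 0.16).

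Of the 3 glutathione synthesis genes tested, 0 passed. Gclm, the modifier subunit of the rate-limiting ligase and another Nrf2 target, read 9.59, 9.44, 9.45 and 9.32 log2 in control and 9.63, 9.70, 9.64 and 9.57 in knockout-labelled arrays. Only knockout-labelled array 4 lay within the control range, and the difference of 0.18 (SE 0.07, 95% interval 0.03 to 0.34) did not pass (limma adjusted p = 0.124). Gclc, the catalytic subunit, was above background on 3 control arrays and 2 knockout-labelled ones, and differed by -0.14 (adjusted p = 0.571), a difference between signals near background. The probes of Gss, the glutathione synthetase, disagreed: the brightest differed by -0.16 and the other 2 by 0.05 and 0.16.

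The glutathione S-transferases, which join glutathione to reactive compounds, did not pass in any of 13 genes tested out of 21 on the array. Gstp1, the pi-class enzyme, read 12.24, 12.18, 12.45 and 12.43 log2 in control and 11.96, 12.04, 12.15 and 12.03 in knockout-labelled arrays. The groups did not overlap and the difference was -0.28 (SE 0.08; limma adjusted p = 0.0509); its 2 other detected probes differed by -0.26 and -0.21. The neighbouring Gstp2 differed by -0.47 (SE 0.19, adjusted p = 0.144), with control array 4 at 7.08 and the other controls at 6.24 to 6.52. Gstp1 and Gstp2 are near-identical genes, so that their probes may read each other's transcripts, which was not tested.

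Gstt3, a theta-class enzyme, read 9.30, 9.23, 9.39 and 9.45 log2 in control and 9.56, 9.57, 9.55 and 9.58 in knockout-labelled arrays. The knockout-labelled values were tightly grouped above all controls, and the difference of 0.22 (SE 0.06) missed the threshold (limma adjusted p = 0.0518). The theta-class genes Gstt1, which lies next to it, and Gstt2 differed by 0.19 and 0.04 (adjusted p = 0.269 and 0.895). Of the mu class, Gstm2 differed by 0.11, Gstm5 by 0.02, Gstm1 by -0.17 and Gstm4 by -0.20, with adjusted p-values from 0.181 to 0.878. Mu-class transcripts are also closely related and may share probes. Gsto1, Gstz1, Gstk1 and Gsta3 differed by 0.02, 0.10, -0.12 and 0.00, of which Gstk1 alone had groups without overlap.

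The 3 microsomal transferases Mgst1, Mgst2 and Mgst3, membrane enzymes that act on lipid peroxides and leukotriene precursors, had differences of -0.14, -0.28 and -0.25 log2, and 0 passed (limma adjusted p from 0.190 to 0.249). The dimmer detected probe of Mgst3 differed by -0.11. Knockout-labelled array 4 gave the highest Mgst1 value of all 8 arrays, at 10.83, where the other knockout-labelled arrays lay at 10.55 to 10.59.

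Of the 5 glutathione peroxidases tested, 0 passed; the selenoenzymes Gpx1, Gpx3 and Gpx4 had means below the controls'. Gpx1, which reduces hydrogen peroxide in the cytosol and mitochondria, read 12.72, 12.73, 12.66 and 12.70 log2 in control and 12.49, 12.24, 12.47 and 12.64 in knockout-labelled arrays. Gpx4, which reduces lipid hydroperoxides in membranes, read 10.47, 10.45, 10.51 and 10.45 against 10.35, 10.28, 10.33 and 10.27. Neither gene's groups overlapped, and the differences of -0.24 (SE 0.08) and -0.16 (SE 0.05) did not pass (limma adjusted p = 0.0898 and 0.0860). Gpx3, the secreted plasma peroxidase, differed by -0.37 (SE 0.11, adjusted p = 0.0748), with knockout-labelled array 1 at 8.08 inside the control range of 7.99 to 8.31. Gpx7 and Gpx8, enzymes of the endoplasmic reticulum that lack selenocysteine, differed by 0.15 and 0.06 (adjusted p = 0.194 and 0.520). Gpx2, Gpx5 and Gpx6 were not detected on any array.

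The selenoprotein synthesis and methionine sulfoxide reductase genes gave 0 calls among 6 tested. The closest were Msrb2 at 0.22 log2 and Msrb3 at -0.23 (limma adjusted p = 0.0864 and 0.160), and the selenophosphate synthetases Sephs1 and Sephs2 differed by -0.20 and -0.18 (0.205 and 0.351). Sephs1 was near background, detected on 3 control and 2 knockout-labelled arrays. Secisbp2 differed by -0.18 and Sepsecs by 0.13 (0.310 and 0.586), with Sepsecs detected on 3 arrays of each group.

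Peroxiredoxins, which clear low levels of peroxide, had differences near 0. By the brightest probe of each, the 5 genes Prdx1, Prdx2, Prdx3, Prdx4 and Srxn1 lay between -0.07 and 0.08 log2, and 0 passed. Srxn1 is the sulfiredoxin that repairs over-oxidised peroxiredoxins. Prdx1 read 14.20, 14.13, 14.11 and 14.20 in control and 14.37, 14.25, 14.15 and 14.11 in knockout-labelled arrays, a difference of 0.06 (95% interval -0.09 to 0.21). Its dimmer probe differed by 0.26, and the dimmer detected probe of Prdx2 by -0.15. Srxn1, also an Nrf2 target, differed by 0.06 (95% interval -0.15 to 0.27), and its 2 other detected probes by -0.01 and 0.18.

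The 3 superoxide dismutases had differences on both sides of 0, and 0 passed. Sod1, the copper-zinc enzyme of the cytosol, read 11.92, 11.84, 11.83 and 11.84 log2 in control and 11.70, 11.71, 11.67 and 11.65 in knockout-labelled arrays. Sod2, the manganese enzyme of mitochondria, read 13.85, 13.73, 13.77 and 13.79 against 13.92, 13.93, 13.94 and 14.02. Neither gene's groups overlapped. The differences were -0.17 for Sod1 (SE 0.05, 95% interval -0.29 to -0.05) and 0.17 for Sod2 (SE 0.06, 0.04 to 0.29), with limma adjusted p = 0.0741 and 0.0960. Sod3, the secreted enzyme of the matrix, read 7.83, 7.70, 7.99 and 8.03 against 8.27, 8.02, 8.21 and 8.40. It overlapped through knockout-labelled array 2 alone, and its difference was 0.34 (SE 0.10, 95% interval 0.12 to 0.55; adjusted p = 0.0599). Catalase (Cat), the peroxisomal enzyme, differed by -0.15 (95% interval -0.35 to 0.06; adjusted p = 0.340).

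**Figure D4:**
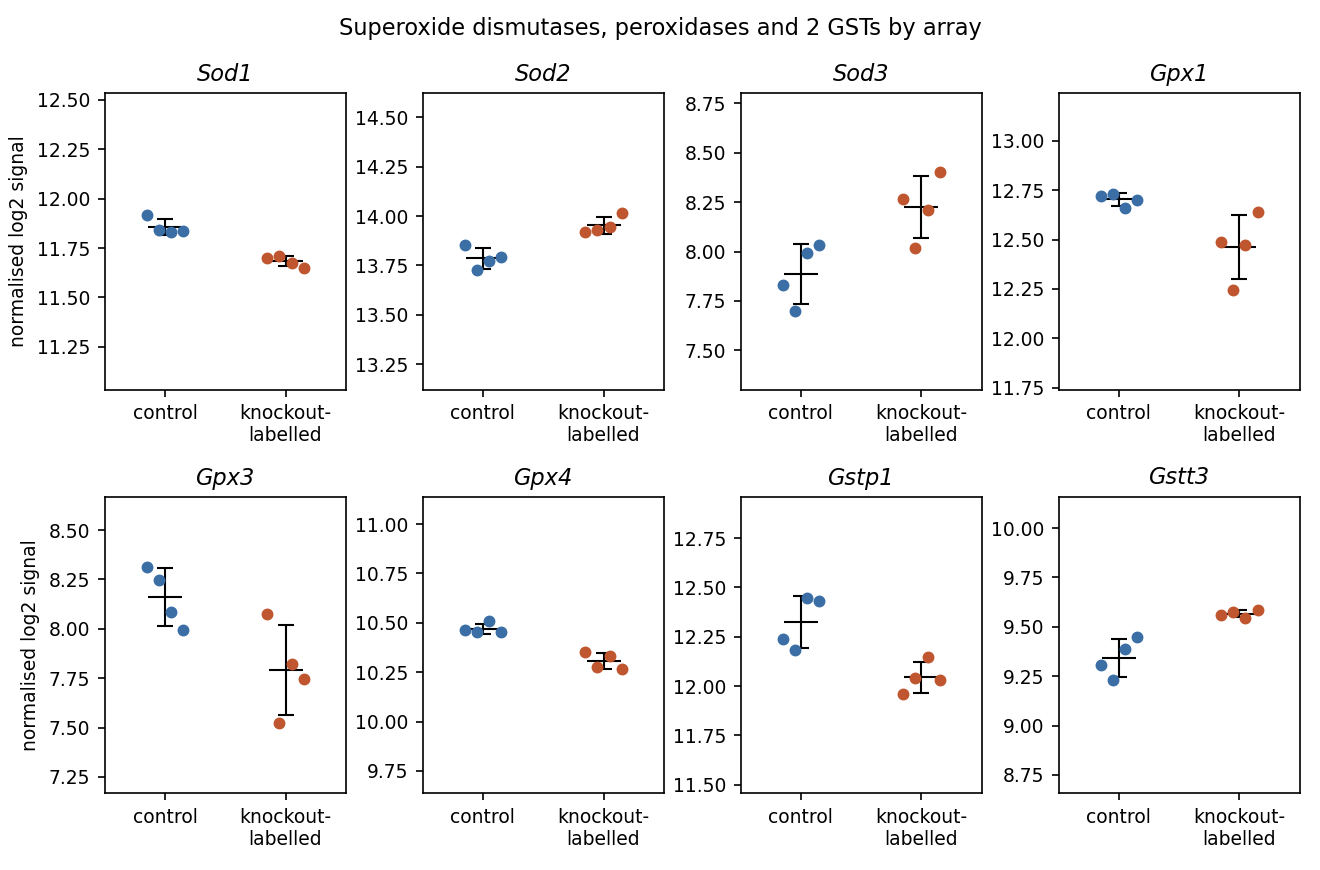
Normalised log2 signal (vertical axis) on each array for the 3 superoxide dismutases, Gpx1, Gpx3, Gpx4, Gstp1 and Gstt3; points are arrays, and the bar and whiskers are the group mean and SD (n = 4). Each panel spans 1.5 log2 units. The groups do not overlap except for Sod3 and Gpx3, and none of the 8 genes passed an adjusted p of 0.05.

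The groups did not overlap for 11 of the 54 genes (Mt2, Glrx5, Txnl4a, Txnip, Gstp1, Gstt3, Gstk1, Gpx1, Gpx4, Sod1 and Sod2), with 4 higher and 7 lower. Over all genes tested, 16.8% had groups without overlap. How many redox genes were called depended on the prior used for the variances and on the background correction. With a trended and robust prior in place of the constant one, 13 of the 54 passed, 6 higher and 7 lower, where 13.7% of all genes did. The authors' deposited log2 table gave 12 of 54, 5 higher and 7 lower, where 13.8% of all genes passed. The genes added by the trended and robust prior, in which both options were changed together, were Gstt3, Sod2, Sod3, Txndc5 and Txnip, all higher, and Gpx1, Gpx3, Gpx4, Gstp1 and Sod1, all lower. None of the 10 changed sign under any of the 19 alternatives. With each array scaled to its 75th percentile, 3 of the 4 redox genes called were higher (Mt2, Gstt3 and Sod2) and Glrx5 alone was lower. That scaling called 7.41% of the redox genes and 9.27% of all genes.

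**Figure D5:**
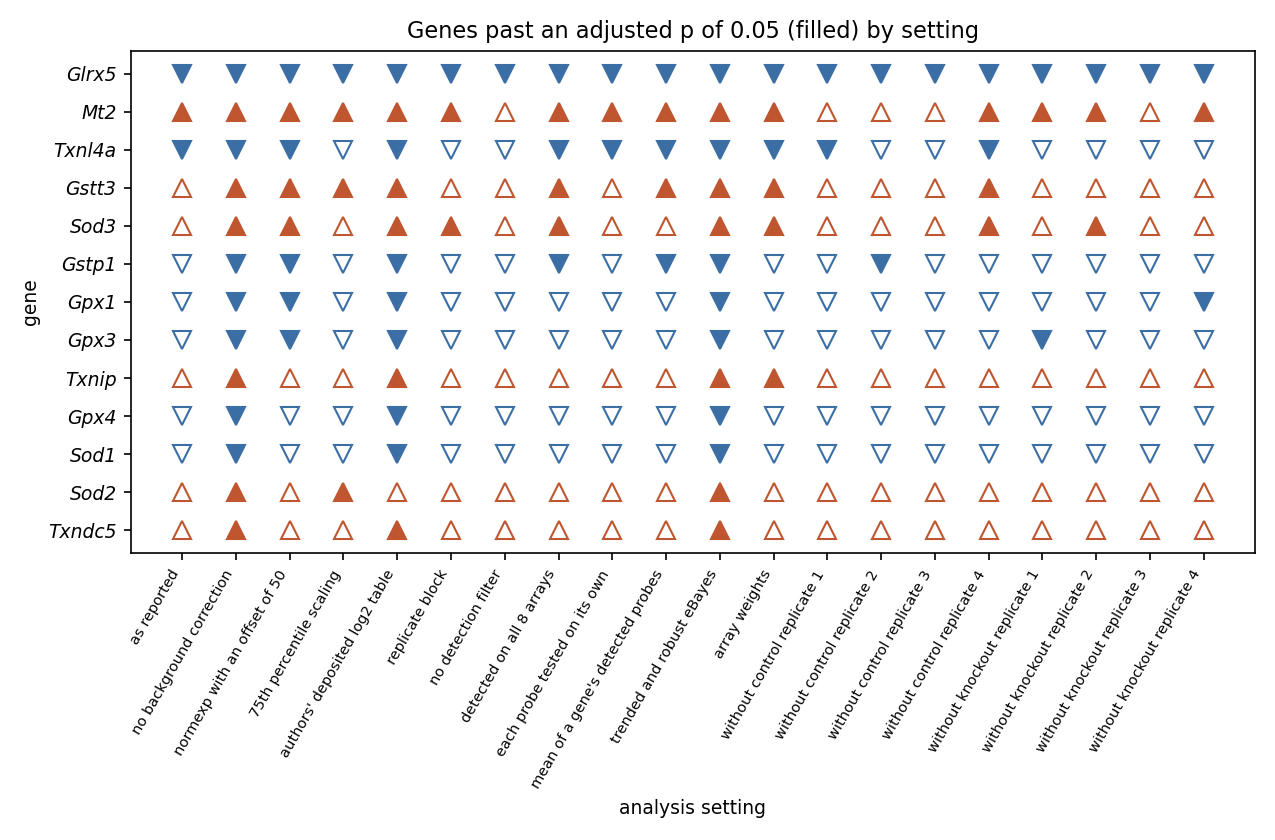
The 13 redox genes (vertical axis) that passed an adjusted p of 0.05 as reported or with the trended and robust prior, by analysis setting (horizontal axis). Upward triangles mark genes with higher and downward triangles genes with lower knockout-labelled means as reported, and filled triangles passed; Glrx5 is filled under all 19 alternatives, Mt2 under 14 and Txnl4a under 10.

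Genes that supply and use these systems were examined from lists outside the families above. Of 7 cysteine supply genes tested, 1 rose: Cth, cystathionine gamma-lyase, which releases cysteine from cystathionine. It read 7.25, 7.29, 7.41 and 7.70 log2 in control and 7.91, 8.03, 8.04 and 7.90 in knockout-labelled arrays, a 1.47-fold difference without overlap (0.55 log2, SE 0.10; limma adjusted p = 0.00881) that passed under each of the 19 alternatives. The cystine importer subunit Slc7a11 differed by 0.32 and its partner Slc3a2 by 0.12 (adjusted p = 0.101 and 0.520). Of 8 NADPH supply genes, 1 fell: Idh2, the mitochondrial NADP-dependent isocitrate dehydrogenase, by 0.39 log2 (limma adjusted p = 0.0182, SE 0.08). Leaving out control array 3 or knockout-labelled array 2 or 3 ended the call (adjusted p up to 0.0545). The cytosolic Idh1 differed by 0.16, and the pentose phosphate genes Taldo1, Tkt and Pgls by 0.03, 0.01 and 0.07.

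Of 13 Nrf2 partners and other Nrf2 targets, 1 rose and 1 fell. Maff, a small Maf protein that pairs with Nrf2, fell by 0.41 log2 (limma adjusted p = 0.0204, SE 0.09). Leaving out control array 2 or knockout-labelled array 1, or adding the replicate block, ended that call (adjusted p up to 0.0604). Abcc5, an exporter of organic anions, rose by 0.25 (adjusted p = 0.0488), a call that held under 8 of the 19 alternatives. It was lost when any array other than control array 4 was left out (up to 0.114), with the replicate block (0.0858), with no detection filter (0.0989), with each probe tested on its own (0.0583) and with the trended and robust prior (0.0544). Heme oxygenase (Hmox1), a classical target, differed by 0.23 (95% interval 0.03 to 0.44; adjusted p = 0.148) and Sqstm1 by -0.30 (0.0949). Of 3 oxidant-source genes tested, xanthine dehydrogenase (Xdh) rose by 0.35 (adjusted p = 0.0361) with 1 knockout-labelled array inside the control range, and its call ended when any array but control array 3 or knockout-labelled array 4 was left out (up to 0.0900), with the replicate block (0.0627) and with no detection filter (0.0788). The NADPH oxidase genes Nox1 and Cybb were not detected. Of 15 other redox and metal protection genes 0 passed, the nearest being Hmox2 at -0.25 and Esd at 0.19 (adjusted p = 0.0518 and 0.197).

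The 18 redox genes that were not tested had signals mostly near background. Of these, 14 were not detected on any array, among them Gsta1, Gsta2, Gsta4, Gstm3, Gstt4 and Txndc17. Gstm6 was detected on 3 control arrays and 0 knockout-labelled ones, at 5.96, 5.53, 6.05 and 5.88 log2 in control and 5.30, 5.12, 4.98 and 5.42 in knockout-labelled arrays. These signals lie at the edge of background, no fold is given for them, and the second Gstm6 probe was not detected. With no detection filter, Gstm6 and Glrx5 were the 2 redox genes called, both lower. They made up 2.78% of the redox genes, where 2.27% of all genes passed. Gsto2, Gstp3 and Txnrd3 were each detected on at most 2 arrays.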

How the data were processed

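The series holds 8 Illumina arrays, 4 per group. GenomeStudio, with no version, is the tool the submitters' processing notes name. Per the file headers the authors deposited a signal intensity and a detection p-value per probe. The deposited intensity values were linear, with medians from 126 to 155 and a minimum of 91.6, so they were treated as not normalized. The deposited detection p-value rose with signal (Spearman at least 0.979), so 1 minus it was used. The authors' deposited log2 table had a median of 6.89 over all 8 arrays together and ranked the probes as the intensities did. Its scale is not otherwise known here, and that table served as an alternative.

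Intensities were processed with neqc of limma 3.58.1 (R 4.3.3; offset 16). Probes with detection p under 0.01 on at least 4 arrays were kept (10004), and the brightest named probe per gene was tested with lmFit and eBayes, Benjamini-Hochberg adjusted over 7041 genes at 0.05. The steps were tested on simulated data. No array duplicated another (0 of 28 pairs). Nothing in the labels ties arrays to separate animals or cultures, so p-values measure the spread between arrays, which may be technical, and the number of arrays limits the precision. Same-numbered arrays did not deviate together (correlations -0.03 to 0.09).

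Members, lists and tests were chosen with earlier results of these data known. The genes named are members past the threshold, a fixed set of 20 central genes (Gsr had no named probe), up to 2 further members per role by p, and the called or 2 lowest-p genes of each pathway list. Other members, and pathway genes such as Slc7a11, Slc3a2, Idh1, Hmox1 and Sqstm1, were named after their values were seen. Alternatives were other background corrections, scalings, filters, probe rules, priors, array weights, the replicate block and leaving out each array. Symbols follow the platform annotation; 23962 of 23978 named probes matched RefSeq by gene ID.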

Additional observations from a re-analysis of the deposited data

Results flagged for a closer look

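In 108 groups of 4 arrays (54 genes in 2 groups), 6 single arrays stood apart from the other 3 of their group by Dixon's test, about as many as the 1 in 20 that chance flags. In control array 2, Gstk1 was low at 9.05 log2, where the other controls lay at 9.10. Control array 1 was low for Mgst1 at 10.73 (others 10.78 to 10.79) and for Txndc11 at 5.62 (others 6.02), and high for Sod1 at 11.92 (others 11.83 to 11.84). Control array 4 was low for Prdx2 at 12.47 (others 12.71 to 12.75). Knockout-labelled array 4 was high for Mgst1 at 10.83 (others 10.55 to 10.59). None of these 5 genes had passed the test between the groups. Sod1 kept its direction with each array left out, with changes of -0.18 to -0.15 log2.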

How the results depend on the processing

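Of the 34 redox genes named by rule, Glrx5 passed under all 19 alternatives, Mt2 under 14 and Txnl4a under 10. Txnl4a missed the threshold with 75th percentile scaling (-0.21 log2), the replicate block (-0.25) and no detection filter (-0.25), and ranged from -0.28 to -0.22 with 1 array left out. Mt2 missed it with no filter (0.57) and ranged from 0.49 to 0.70 with 1 array left out. The count of redox genes called was 3 as reported, 13 without background correction, 8 with normexp, 12 in the authors' table, 6 with detection on all 8 arrays, 2 with no detection filter (Glrx5 and Gstm6), 5 with the mean of a gene's probes, 13 with the trended and robust prior and 6 with array weights. The share called among redox genes, below that of all genes as reported, was above it without background correction (24.1% against 13.9%) and with normexp (14.8% against 11.6%), as in the authors' table and with the trended and robust prior. With 1 array left out the count was 1 to 5, the lowest when control array 3 or knockout-labelled array 3 was dropped and the highest when control array 4 was. Over all genes, the count of 607 became 979, 971, 376 and 965 without background correction, in the authors' table, with no filter and with the trended and robust prior, and 323 to 718 with 1 array left out. The median change of the redox genes became 0.002 with 75th percentile scaling, which moved the median of all genes by 0.02, and -0.05 to -0.01 with 1 array left out. That scaling changed the split of all calls from 249 higher and 358 lower to 338 and 315. Among the named genes, sign changes occurred only in 3 that were called under no setting: Gss (0.0177 with the mean of its probes), Nfe2l2 (-0.0115 to 0.20 with 1 array left out) and Nqo1 (-0.0824 to 0.0531). The replicate block, which is a shared number without evidence of pairing, gave 3 redox genes (Glrx5, Mt2 and Sod3) and 408 genes in all; Txnl4a, Maff, Xdh and Abcc5 passed without it and not with it. Why these calls move was not tested. Dim probes such as Gclc, Txndc11 and Gsta3 lie near background, where a change cannot be measured well. Gclc and Txndc11 have no value where all 8 arrays must detect a probe.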
